A study of Mus musculus with 12 samples.

Results

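The genes described here are 38 genes of fatty acid oxidation and targets of PPARA, picked from the deposited table by gene symbol. All 38 symbols asked for were found among the 17112 genes listed, and all 38 passed the filter on low values that 14001 genes passed. They were measured by RNA-seq in tissue labelled whole small intestine from 12 C57BL/6 mice, 1 library per mouse. The zinc importer gene Zip4 (symbol Slc39a4) was intact (wild type, WT), lost in single copy (heterozygous, HET) or knocked out (KO), and the zinc of their diet was carried by an organic complex at its amino or its hydroxy end, which gave 6 groups of 2 libraries. WT and HET mice were labelled as fed 15 ppm zinc and KO mice 40 ppm, whereas the description of the series gives 15 ppm throughout. By the sample labels, genotype and dietary zinc cannot be told apart wherever KO is compared. WT mice were 210 to 237 days old and KO mice 198 to 240 days, while the HET mice were 363 (amino 1), 141 (amino 2), 338 (hydroxy 1) and 143 days old (hydroxy 2). All were labelled male except KO amino 2. The deleted part of the gene, any Cre driver and the time of day of sampling are not stated in the labels.

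Fatty acids are bound in the cytosol, activated to acyl-CoA and passed to carnitine for entry into mitochondria. There they are shortened in repeated cycles by acyl-CoA dehydrogenases, the trifunctional protein and thiolases, and their electrons leave through the electron transfer flavoprotein. Peroxisomes shorten very long chains by a parallel route. PPARA is a nuclear receptor activated by fatty acids that binds DNA with a retinoid X receptor and induces many of these genes in liver and small intestine, in fasting and on fatty diets.

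Sequencing depth was 26.0 to 38.8 M reads per library, and 3 reads corresponded to 0.0773 to 0.115 CPM (counts of reads relative to library size), a limit that covers counting error only. The targeted gene, Slc39a4, stood at 229 ± 33.1 CPM in WT (SD, n = 4), 195 ± 74.4 in HET and 72.1 ± 23.6 in KO. Its log2 change was −1.40 in KO against HET (SE 0.28, adjusted p = 0.0273) and −1.71 against WT (SE 0.28, adjusted p = 0.0736). The summed level of 8 enterocyte markers was 12900 to 19400 CPM in WT, 11200 to 22400 in HET and 8210 to 18300 in KO. The ileal gene Fabp6 reached 259 CPM in WT hydroxy 1 and 99.3 in HET amino 2, and at most 0.836 in the other libraries. The female transcript Xist stood at 244 CPM in KO amino 1, labelled male, and at 0.155 in KO amino 2, labelled female. Both belong to the KO amino group, so the groups are the same whichever library is the female.

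A PPARA dimer recognises direct repeats of AGGTCA spaced by 1 base. RefSeq promoters (build GRCm38.p6, 250 bases before to 50 after the start) were found for 33 of the 38 genes. Both strands were searched for AGGTCA and for AGGTCANAGGTCA, so that a repeat can contain a match to the shorter motif. AGGTCA was found in 7 of the 33 (21.2%) and in 18.1% of 27025 genes with a promoter. The exact repeat was found in 0 of the 33 and in 0.0481% of all. With 2 or fewer mismatches it was found in 5 of the 33 (15.2%) and in 4.4% of all, and those 5 were Creb3l3, Etfa, Fabp1, Plin2 and Slc25a20. The promoters of Slc25a20, Etfa and Plin2 are shown because these genes rose in KO against HET and hold such a match, and that of Fabp1 because its match has the fewest mismatches, 1. Each is written 5′ to 3′ along the strand of its gene, with the matched 13 bases in capitals.
Slc25a20 (chr9:108661886-108662185, plus strand): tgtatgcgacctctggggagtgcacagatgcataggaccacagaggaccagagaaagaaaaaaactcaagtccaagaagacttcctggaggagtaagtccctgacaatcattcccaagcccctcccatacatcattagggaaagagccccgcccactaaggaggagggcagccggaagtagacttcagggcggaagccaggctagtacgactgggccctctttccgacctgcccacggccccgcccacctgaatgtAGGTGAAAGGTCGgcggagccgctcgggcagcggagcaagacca
Etfa (chr9:55512194-55512493, minus strand): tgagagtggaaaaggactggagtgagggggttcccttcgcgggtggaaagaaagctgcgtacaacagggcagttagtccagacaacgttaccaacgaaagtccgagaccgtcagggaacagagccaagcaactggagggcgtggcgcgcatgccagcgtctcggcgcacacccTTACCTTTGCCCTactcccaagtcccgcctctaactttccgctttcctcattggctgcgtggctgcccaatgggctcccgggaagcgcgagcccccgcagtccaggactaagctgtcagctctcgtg
Plin2 (chr4:86670010-86670309, minus strand): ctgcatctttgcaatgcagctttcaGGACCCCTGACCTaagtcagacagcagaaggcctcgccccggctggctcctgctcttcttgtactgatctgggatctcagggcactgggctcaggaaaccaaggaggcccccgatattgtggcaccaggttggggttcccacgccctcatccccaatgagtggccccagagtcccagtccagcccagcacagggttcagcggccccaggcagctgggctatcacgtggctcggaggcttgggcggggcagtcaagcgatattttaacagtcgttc
Fabp1 (chr6:71199629-71199928, plus strand): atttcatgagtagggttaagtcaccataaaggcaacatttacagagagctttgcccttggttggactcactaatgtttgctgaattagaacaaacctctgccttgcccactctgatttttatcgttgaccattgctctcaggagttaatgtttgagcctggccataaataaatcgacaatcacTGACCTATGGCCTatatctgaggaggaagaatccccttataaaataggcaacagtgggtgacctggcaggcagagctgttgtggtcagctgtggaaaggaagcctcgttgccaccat
The Slc25a20 match lay after the start, at positions 7 to 19, and read AGGTGAAAGGTCG along the gene. The other matches lay on the opposite strand, where they read AGGGCAAAGGTAA in Etfa at −77 to −65, AGGTCAGGGGTCC in Plin2 at −225 to −213 and AGGCCATAGGTCA in Fabp1 at −67 to −55. The promoters of Acadl and Acaa1a, which also rose in KO against HET, held no match to either motif within these windows. A match describes letters in a window, and binding was not measured.

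Levels can be set side by side between genes only per length, so CPM was divided by the joined length of all annotated exons of each gene in GENCODE M21. That length can exceed any 1 transcript of the gene, so levels and ranks depend on it. In WT the fatty acid binding proteins of the enterocyte were highest, with 4540 ± 1870 CPM per kb for Fabp2 (SD, n = 4) and 2220 ± 728 for Fabp1. The acyl-CoA synthetase Acsl5 followed at 256 ± 37.9 CPM per kb and the fatty acid transporter Slc27a4 at 222 ± 42.2. Fabp2 and Fabp1 did not differ beyond their spread, nor did Acsl5 and Slc27a4, whereas Fabp1 lay well above Acsl5. Acsl1, a synthetase of the same family as Acsl5, stood at 5.10 ± 1.04 CPM per kb. Part of that gap comes from the length used. It was 10483 bases for Acsl1, whose longest coding transcript has 3897, and 4864 for Acsl5, whose longest has 4243. At the low end were Acot1 (1.12 ± 0.995 CPM per kb) and Cyp4a10 (0.312 ± 0.295), whose neighbouring ranks also overlapped. Ppara itself ranked 30 of 38, at 9.73 ± 4.24 CPM per kb.

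**Figure D1:**
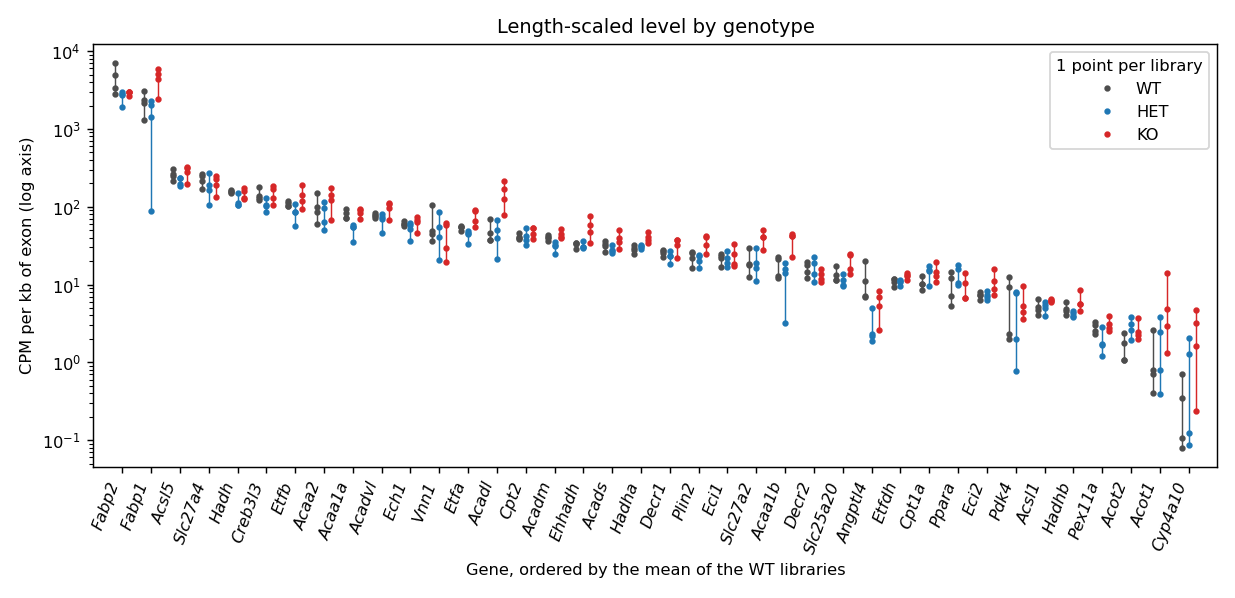
CPM per kb of exon on a log axis for the 38 genes, ordered by the WT mean, with 1 point per library and a line over the range of the 4 libraries of a genotype. Fabp2 and Fabp1 stand at the top and Cyp4a10 at the bottom, and the ranges are widest for Fabp1 in HET and for Acot1, Cyp4a10 and Pdk4.

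The widest ranges over the 12 libraries were those of Fabp1 (49.2 to 3300 CPM), Cyp4a10 (0.167 to 9.82), Acot1 (1.53 to 55.2) and Pdk4 (2.73 to 44.3). For each library, the deviation of a gene was taken as its log2(CPM + 1) minus the WT mean, and the median over the 38 genes was computed. That median was −0.12 to 0.11 in the WT libraries. It was −0.10 in HET amino 1 and hydroxy 1, −0.13 in hydroxy 2 and −0.46 in amino 2, the library with Fabp6. In KO it was −0.01 in amino 1, 0.27 in amino 2, 0.36 in hydroxy 1 and 0.54 in hydroxy 2. The last 3 libraries held 32, 33 and 29 of the 38 genes above the WT mean, whereas KO amino 1 held 18. The WT libraries held 7 to 29. The same median over all 14001 genes was 0.00, −0.06, −0.03 and 0.13 in these 4 KO libraries. KO libraries were thus unequal among themselves. KO amino 1 was also the only library with Xist at a high level (244 CPM, at most 0.877 in the others), and the part of sex was not tested. The median of KO amino 1 lay within the WT range and those of the other KO libraries above it, although KO hydroxy 2 held no more genes above the WT mean than WT hydroxy 2.

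**Figure D2:**
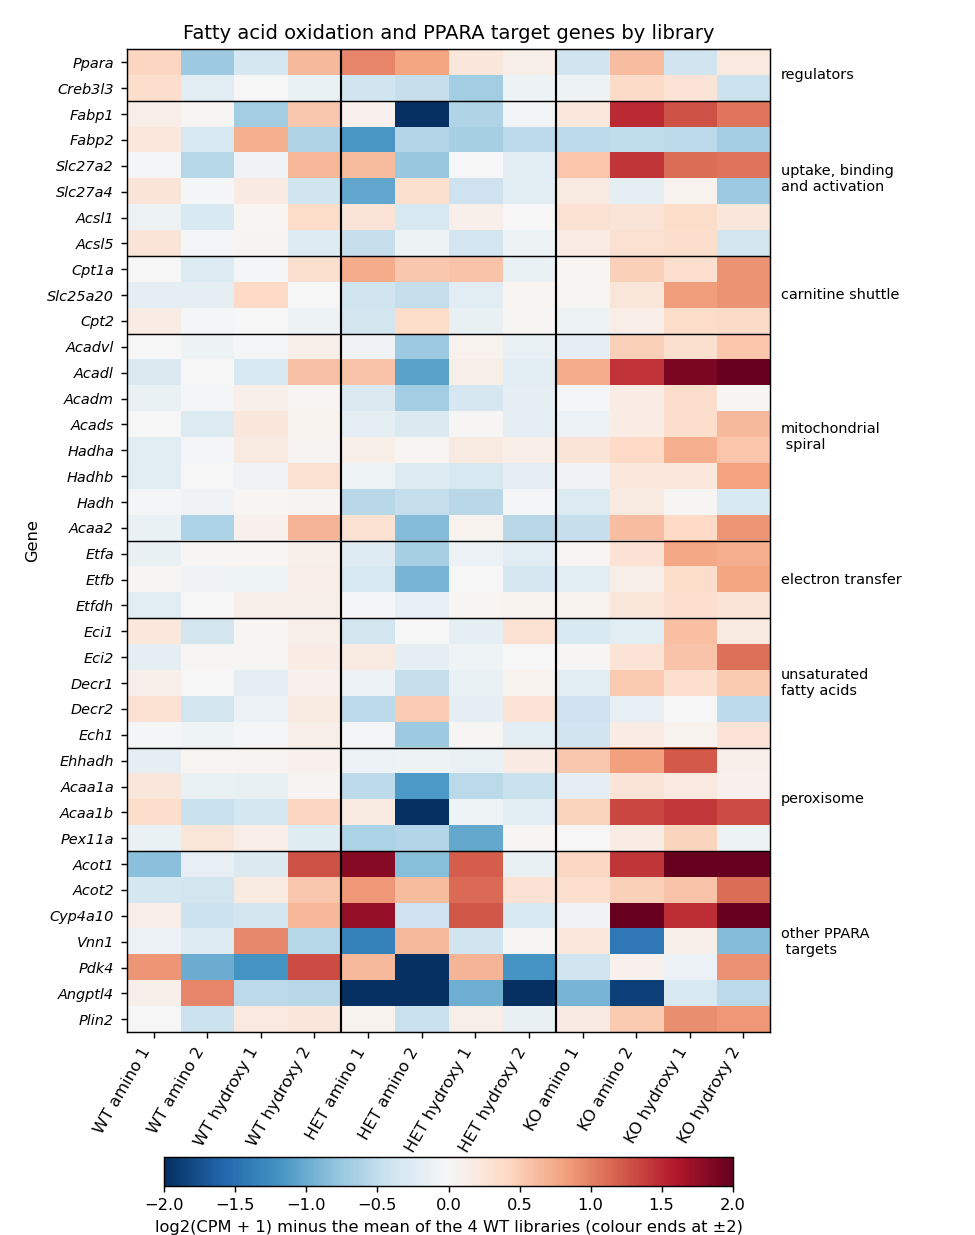
Log2(CPM + 1) of each gene in each library minus the mean of the 4 WT libraries, with genes grouped by role and colours ending at 2 on either side. Acadl, Acaa1b, Slc27a2 and Fabp1 are high in KO amino 2 and both KO hydroxy libraries, HET amino 2 is low for many genes, and Angptl4 is low in HET.

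In KO against HET, 5 of the 38 genes rose and 0 fell by limma at an adjusted p under 0.05 (13.2%, against 6.84% of all genes called, 3.44% higher and 3.4% lower). The 5 were Acadl, Slc25a20, Etfa, Plin2 and Acaa1a, which encode a dehydrogenase of the mitochondrial cycle, the carnitine carrier, an electron transfer subunit, a lipid droplet coat protein and a peroxisomal thiolase. Of the 38, 34 had a log2 change above 0 (89.5%, against 43.8% of all genes), and the median was 0.50, against −0.07 over all genes. At an unadjusted p under 0.05 there were 20, all higher (52.6%, against 27.5% of all genes, 1864 of them higher and 1992 lower). Without overlap between the 4 KO and 4 HET libraries, 11 genes stood higher and 0 lower (28.9%, against 6.21% of all genes higher, 7.13% lower and 13.3% either way). The p-values measure the spread between these mice, and the bulk measurement cannot tell fewer cells of a type from less RNA per cell. The share of all genes called moved between fits, from 6.84% to 11.8% with age as a covariate and to 0.0714% with only KO and HET in the fit. The call among the 38 rests on few libraries. Leaving out 1 library could remove every call among the 38 or add to them, and the share of all genes called moved as well. Such a fit leaves a group with 1 library, so only its effect size is given here. The median log2 change of the 38 genes was 0.35 to 0.58 over the 12 such fits, against 0.50 with all libraries. It was 0.42 without both libraries with Fabp6. With age as a covariate, 12 of the 38 genes were called, against 11.8% of all genes.

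In KO against WT, limma called 0 of the 38 genes, against 4 of all genes (0.0286%, with 0.0214% higher and 0.00714% lower), and 13 of the 38 and 1370 of all had an unadjusted p under 0.05. Of these 13, 12 were higher and 1, Angptl4, was lower, and of the 1370, 952 were higher and 418 lower. Log2 changes were above 0 for 32 of 38 (84.2%, against 52.5% of all genes), with a median of 0.27 against 0.02, which was 0.16 without KO amino 2. Without overlap between libraries, 0 genes stood lower in KO and 4 stood higher, namely Hadha, Ehhadh, Acaa1b and Acadl. These 4 are 10.5%, against 2.92% of all genes higher, 2.57% lower and 5.49% either way. Ehhadh separated only beyond the digits printed (103 CPM in KO hydroxy 2 and in WT hydroxy 2). Acaa1b separated by little (44.3 in KO amino 1, 44.2 in WT hydroxy 2). In HET against WT, limma called 0 of the 38 and 0 of all (0%), with 6 and 2137 at an unadjusted p under 0.05. There, 30 of 38 changes were below 0, with a median of −0.21 against 0.08 over all genes, which was −0.10 without HET amino 2 and −0.11 without WT hydroxy 2. Without overlap, 3 genes stood lower in HET, namely Acaa1a, Acadm and Angptl4 (7.89%, against 3.81% of all genes lower, 5.84% higher and 9.66% either way). Without HET amino 1, Fabp1 passed the threshold in HET against WT (log2 change −2.44, adjusted p = 0.0441). The comparisons of KO with HET, KO with WT and HET with WT share libraries, so their values are given side by side only.

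**Figure D3:**
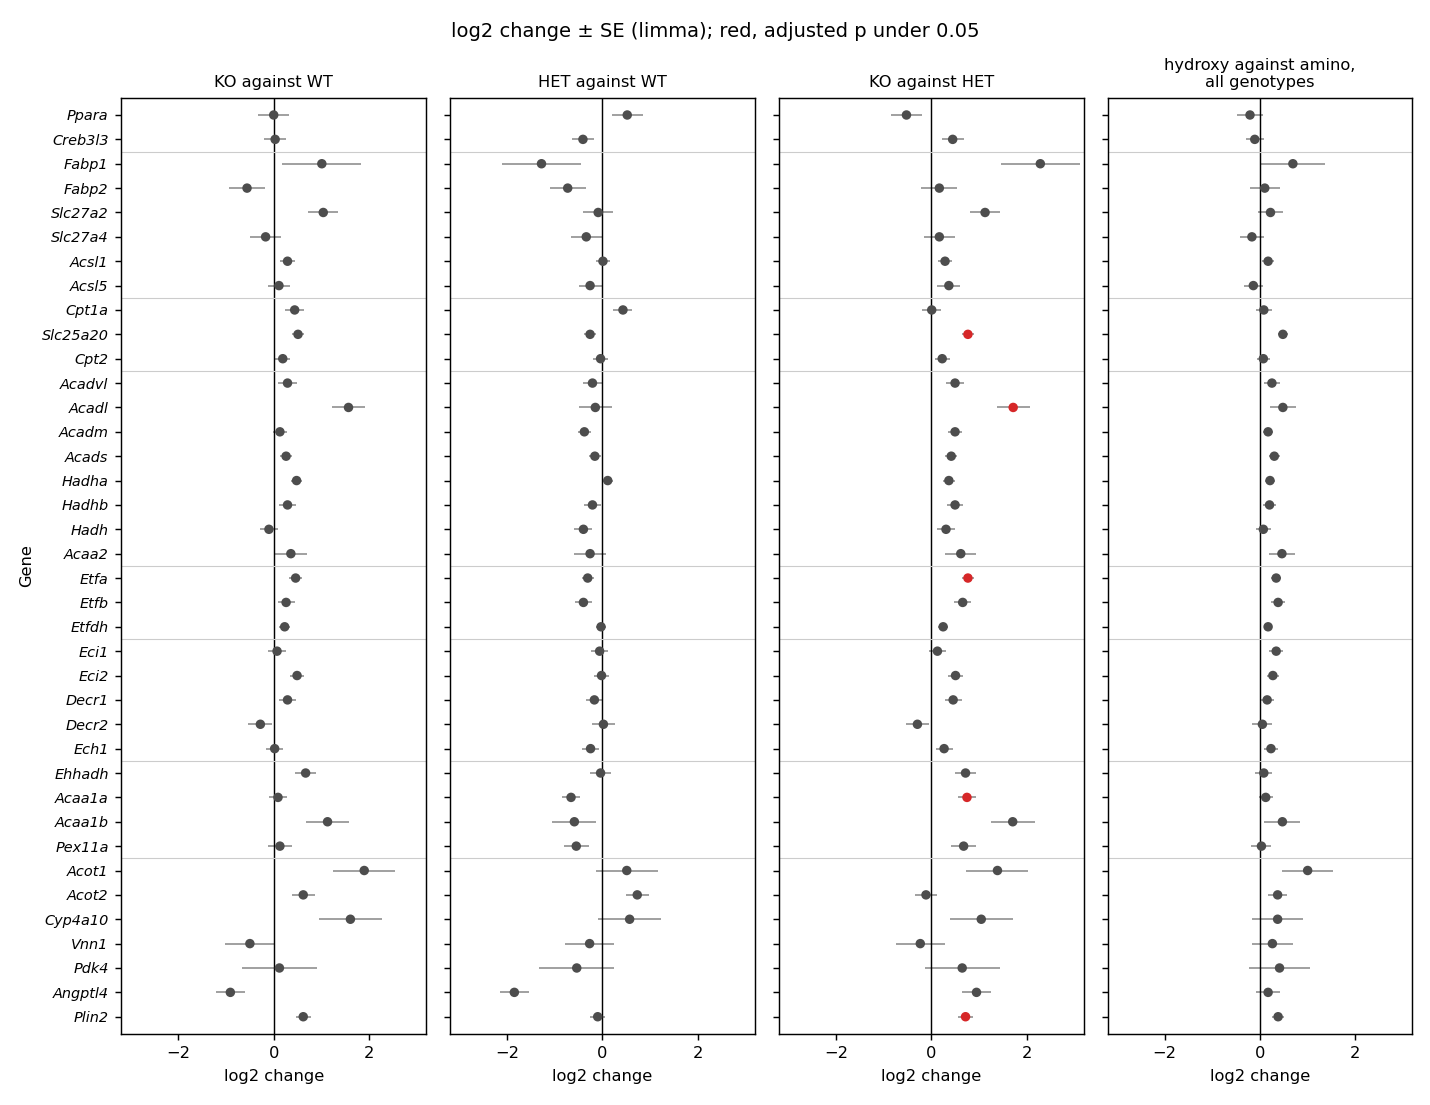
Log2 change ± SE (limma, n = 4 libraries per genotype or 6 per complex) of each gene in the comparisons of KO with WT, HET with WT, KO with HET and hydroxy with amino over all genotypes; red marks an adjusted p under 0.05. The 5 red points all lie in KO against HET, between 0.72 and 1.72.

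Values below are CPM in the order amino 1, amino 2, hydroxy 1, hydroxy 2. The regulator Ppara (chromosome 15) stood at 47.1, 20.5, 26.9 and 54.8 in WT, 68.8, 60.3, 40.5 and 37.7 in HET and 26.0, 53.6, 26.0 and 39.9 in KO. The genotypes overlapped, and the log2 change was 0.00 in KO against WT (SE 0.33, adjusted p = 0.997), −0.52 in KO against HET (SE 0.33, adjusted p = 0.330) and 0.52 in HET against WT (SE 0.33, adjusted p = 0.487). Creb3l3, a membrane-bound transcription factor that acts with PPARA in liver, ranged from 363 to 538 CPM in WT, 258 to 394 in HET and 313 to 551 in KO, again with overlap.

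Among the 6 genes of uptake, binding and activation, 0 passed in any comparison with all libraries and no covariate for age. Fabp1, the liver-type fatty acid binding protein, stood at 1290, 1190, 726 and 1710 CPM in WT, 1250, 49.2, 777 and 1130 in HET and 1360, 3300, 2840 and 2460 in KO. Every KO library lay above every HET library, by a narrow margin for KO amino 1, and KO overlapped WT. The mean in KO was 3.11 times that in HET (log2 change 2.29, SE 0.83, adjusted p = 0.112) and 2.03 times that in WT (1.01, SE 0.83, adjusted p = 0.664). The first of these changes was 1.13 without HET amino 2 (SE 0.41, adjusted p = 0.124) and 3.45 without HET amino 1 (SE 0.40, adjusted p = 0.00806). It also passed without the 2 HET mice older than 300 days (3.31, SE 0.45, adjusted p = 0.0261) and with age as a covariate (2.5, SE 0.66, adjusted p = 0.0404). Fabp2, the intestinal type, gave a log2 change of −0.56 in KO against WT (SE 0.38, adjusted p = 0.621), with WT values of 2720 to 6750 CPM and KO values of 2570 to 2910. Slc27a2, an acyl-CoA synthetase and transporter of very long chains, was 105 to 191 CPM in KO, 47.5 to 112 in WT and 41.2 to 110 in HET. Its log2 change was 1.13 in KO against HET (SE 0.32, adjusted p = 0.0605) and 1.04 against WT (SE 0.32, adjusted p = 0.351). Acsl1, which activates long chains, stood at 49.0, 42.6, 54.1 and 68.3 CPM in WT, 63.1, 41.8, 56.8 and 52.7 in HET and 65.7, 63.5, 68.5 and 62.1 in KO. KO was the least variable genotype for Acsl1, and it overlapped both others.

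Of the 3 genes of the carnitine shuttle, 1 rose in KO against HET, as 3.44% of all genes did. Slc25a20 (chromosome 9, 108662098 to 108684642, mm10), the carrier that exchanges acylcarnitine for carnitine across the inner mitochondrial membrane, stood at 55.9, 56.1, 84.4 and 63.4 CPM in WT, 48.4, 45.9, 55.0 and 65.5 in HET and 66.0, 76.1, 115 and 120 in KO. All 4 KO libraries lay above all HET libraries, although the lowest KO and the highest HET value differed little, and both KO hydroxy libraries lay above every other library. The mean was 1.76 times the HET mean (log2 change 0.77, SE 0.13, adjusted p = 0.0218) and 1.45 times the WT mean (0.51, SE 0.13, adjusted p = 0.255). Cpt1a, the rate-limiting carnitine palmitoyltransferase of the outer membrane, stood at 78.4, 65.1, 76.8 and 99.0 CPM in WT, 133, 115, 118 and 72.2 in HET and 81.2, 110, 99.7 and 148 in KO. HET and KO overlapped, with a log2 change of 0.01 (SE 0.20, adjusted p = 0.989). Cpt2, its partner inside the mitochondrion, was 91.4 to 129 CPM in KO, 92.4 to 109 in WT and 76.0 to 127 in HET.

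Among the 8 genes of the mitochondrial cycle, 1 rose in KO against HET, as 3.44% of all genes did. All 8 log2 changes were above 0, against 43.8% of all genes. Acadl (chromosome 1, 66830839 to 66863310, mm10), the long-chain acyl-CoA dehydrogenase, stood at 75.0, 91.8, 74.6 and 139 CPM in WT, 137, 43.3, 99.5 and 78.4 in HET and 155, 252, 343 and 424 in KO. The KO libraries lay above all others, and the hydroxy libraries were the highest of them. The KO mean was 3.28 times the HET mean (log2 change 1.72, SE 0.35, adjusted p = 0.0294) and 3.09 times the WT mean (1.57, SE 0.35, adjusted p = 0.164). Within the amino complex the log2 change from HET to KO was 1.34 (adjusted p = 0.315), and within the hydroxy complex it was 2.10 (adjusted p = 0.0805).

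The dehydrogenases of other chain lengths differed less. Acadm, for medium chains, stood at 142, 154, 168 and 161 CPM in WT, 127, 95.4, 124 and 137 in HET and 153, 172, 200 and 159 in KO. HET lay below both other genotypes without overlap, with log2 changes of 0.50 in KO against HET (SE 0.14, adjusted p = 0.0563) and −0.38 in HET against WT (SE 0.14, adjusted p = 0.263). Acads, for short chains, stood at 70.9, 58.8, 83.2 and 74.6 CPM in WT, 63.1, 58.1, 72.2 and 61.9 in HET and 65.4, 79.5, 90.9 and 113 in KO, so that KO hydroxy 2 was the highest library and KO amino 1 lay among those of WT and HET. Acadvl, for very long chains, gave 0.50 in KO against HET (SE 0.19, adjusted p = 0.127), with 183 to 304 CPM in KO and 125 to 218 in HET.

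Hadha and Hadhb, the subunits of the trifunctional protein, lay above HET in every KO library. For Hadhb the margin was narrow (30.1 CPM in KO amino 1, 30.0 in HET amino 1). Hadha stood at 214, 241, 280 and 254 CPM in WT, 268, 252, 278 and 269 in HET and 294, 324, 409 and 361 in KO, so that KO exceeded every library of both other genotypes. Its log2 change was 0.48 in KO against WT (SE 0.12, adjusted p = 0.259) and 0.37 in KO against HET (SE 0.12, adjusted p = 0.0946). Hadhb gave 0.50 in KO against HET (SE 0.17, adjusted p = 0.0976), but 62.4% of the 50-base windows of its transcripts also occur in other genes, mostly Gm13910, so its count is uncertain. Hadh, the hydroxyacyl-CoA dehydrogenase of shorter chains, was 627 to 877 CPM in KO, 742 to 807 in WT and 530 to 756 in HET, and did not separate the genotypes.

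Electron transfer was represented by 3 genes, of which 1 rose in KO against HET, as 3.44% of all genes did. Etfa (chromosome 9, 55454436 to 55512244, mm10), the alpha subunit of the electron transfer flavoprotein, stood at 88.7, 99.7, 101 and 105 CPM in WT, 82.5, 61.7, 90.2 and 85.3 in HET and 102, 121, 169 and 163 in KO. KO lay above HET throughout and overlapped WT only through KO amino 1. The KO mean was 1.74 times the HET mean (log2 change 0.77, SE 0.13, adjusted p = 0.0214) and 1.41 times the WT mean (0.46, SE 0.13, adjusted p = 0.309). Etfb, the beta subunit, stood at 129, 120, 118 and 139 CPM in WT, 101, 65.9, 126 and 99.5 in HET and 108, 137, 163 and 219 in KO. Its log2 change was 0.66 in KO against HET (SE 0.18, adjusted p = 0.0532), with overlap between KO amino 1 and HET hydroxy 1, and it shares 67.3% of its transcript windows with the overlapping gene Gm45233. Etfdh, which passes the electrons on to ubiquinone, ranged from 86.2 to 104 CPM in KO and from 72.6 to 85.8 in HET (log2 change 0.25, SE 0.11, adjusted p = 0.161).

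None of the 5 genes that handle unsaturated fatty acids passed in any comparison by limma, with 2 at an unadjusted p under 0.05 in KO against HET (40%, against 27.5% of all genes). Eci2, an enoyl-CoA isomerase, stood at 35.4, 40.9, 40.8 and 44.8 CPM in WT, 46.1, 35.1, 38 and 40.4 in HET and 40.9, 48.9, 60.7 and 87.5 in KO. KO amino 1 lay within the range of WT and HET, and KO hydroxy 2 was the highest library. Its log2 change was 0.51 in KO against HET (SE 0.15, adjusted p = 0.0708) and 0.49 in KO against WT (SE 0.15, adjusted p = 0.371). The reductase Decr1 was the other gene at an unadjusted p under 0.05 (0.46 in KO against HET, SE 0.18, adjusted p = 0.129). The peroxisomal reductase Decr2 had a log2 change of −0.29 in KO against HET (SE 0.25, adjusted p = 0.477).

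Of the 4 peroxisomal genes, 1 rose in KO against HET, as 3.44% of all genes did. All 4 had an unadjusted p under 0.05 by limma, as 27.5% of all genes did. Acaa1a (chromosome 9, 119341294 to 119350296, mm10), the peroxisomal thiolase, stood at 407, 315, 313 and 362 CPM in WT, 241, 156, 240 and 255 in HET and 304, 415, 398 and 369 in KO. HET lay below both other genotypes, while KO and WT overlapped. The KO mean was 1.67 times the HET mean (log2 change 0.75, SE 0.18, adjusted p = 0.0442) and 1.06 times the WT mean (0.09, SE 0.18, adjusted p = 0.857), and HET against WT gave −0.66 (SE 0.18, adjusted p = 0.207). Acaa1a shares 35.1% of its transcript windows with other genes, mostly its paralog Acaa1b, so reads may be split between them. Acaa1b stood at 23.6 to 44.2 CPM in WT, 6.19 to 36.8 in HET and 44.3 to 88.3 in KO, above all other libraries although KO amino 1 and WT hydroxy 2 differed little, with a log2 change of 1.71 against HET (SE 0.46, adjusted p = 0.0551) and 1.13 against WT (SE 0.46, adjusted p = 0.476). Ehhadh, the bifunctional enzyme of the peroxisomal route, was 103 to 228 CPM in KO and 84.3 to 103 in WT (log2 change 0.67, SE 0.22, adjusted p = 0.391), and 88.5 to 108 in HET. Pex11a, which takes part in peroxisome division, gave 0.68 in KO against HET (SE 0.26, adjusted p = 0.129).

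Of the 7 other PPARA targets, 1 rose in KO against HET, as 3.44% of all genes did. Plin2 (chromosome 4, 86656565 to 86670060, mm10), which coats lipid droplets, stood at 78.0, 57.8, 89.8 and 91.1 CPM in WT, 81.8, 56.9, 84.5 and 70.2 in HET and 87.0, 113, 149 and 143 in KO. KO lay above HET without overlap, by little for KO amino 1, and overlapped WT only through that library. The KO mean was 1.68 times the HET mean (log2 change 0.72, SE 0.16, adjusted p = 0.0367) and 1.55 times the WT mean (0.62, SE 0.16, adjusted p = 0.266). The acyl-CoA thioesterases Acot1 and Acot2 lie in a gene cluster and share 33.6% and 27.7% of their transcript windows with other genes, mostly each other. Acot1 ranged from 1.58 to 10.2 CPM in WT, 1.53 to 15.2 in HET and 5.14 to 55.2 in KO (log2 change 1.90 in KO against WT, SE 0.65, adjusted p = 0.407). Acot2 stood at 2.34, 2.33, 3.87 and 5.22 CPM in WT, 6.85, 5.67, 8.44 and 4.21 in HET and 4.39, 4.96, 5.36 and 8.27 in KO. Its lowest values were in WT, and HET hydroxy 2 and KO amino 1 and 2 lay within the WT range. It had a log2 change of 0.73 in HET against WT (SE 0.24, adjusted p = 0.241). The fatty acid hydroxylase Cyp4a10, a classic PPARA target in rodent liver, was 0.497 to 9.82 CPM in KO and 0.167 to 1.51 in WT (log2 change 1.61, SE 0.66, adjusted p = 0.476). Pdk4, the kinase that shuts pyruvate out of oxidation, gave 0.12 in KO against WT (SE 0.79, adjusted p = 0.959), and the pantetheinase Vnn1 gave −0.50 (SE 0.52, adjusted p = 0.719).

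Angptl4, a secreted inhibitor of lipoprotein lipase, had its highest mean in WT and its lowest in HET, an order shared by genes such as Fabp2 and Hadh. Angptl4 stood at 39.2, 72.0, 24.9 and 24.5 CPM in WT, 8.21, 6.56, 17.9 and 7.61 in HET and 18.7, 9.23, 29.3 and 24.7 in KO. All HET libraries lay below all WT libraries, and KO overlapped both. The HET mean was 0.251 times the WT mean (log2 change −1.85, SE 0.31, adjusted p = 0.207), KO against WT gave −0.91 (SE 0.31, adjusted p = 0.407), and KO against HET gave 0.95 (SE 0.31, adjusted p = 0.0860). Both hydroxy libraries lay below both amino libraries in WT (log2 change −1.08, SE 0.43, adjusted p = 1) and above both in KO (0.98, SE 0.43, adjusted p = 0.364). The difference between these effects was 2.05 (SE 0.61, unadjusted p = 0.00785, adjusted p = 0.992), so it did not pass over all genes. The difference between HET and WT in the effect of the complex was 1.69 (SE 0.61, adjusted p = 1).

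**Figure D4:**
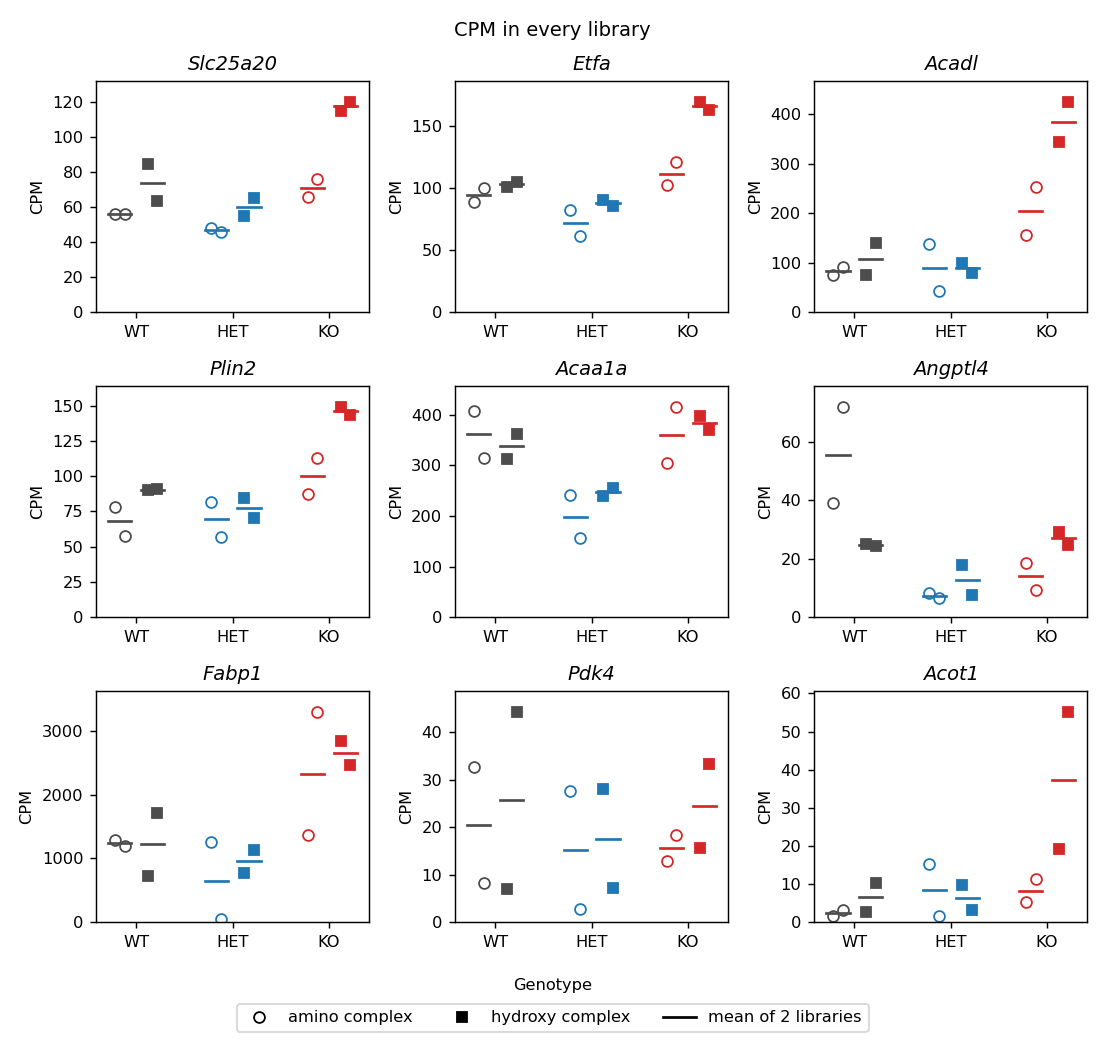
CPM in every library for 9 genes, with open circles for the amino complex, filled squares for the hydroxy complex and a bar at the mean of 2 libraries. KO hydroxy libraries are the highest for Slc25a20, Etfa, Acadl, Plin2 and Acot1, HET is lowest for Acaa1a and Angptl4, and Fabp1 is near the axis in HET amino 2 (49.2 CPM).

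The mode of zinc binding, by the hydroxy or the amino end, was compared next. Over all genotypes limma called 0 of the 38 genes and 0 of all (0%), with 6 and 1255 at an unadjusted p under 0.05. All 6 were higher with the hydroxy complex, namely Slc25a20, Etfa, Plin2, Acads, Etfb and Eci1. Of the 1255, 970 were higher and 285 lower. The median log2 change was 0.21 (34 of 38 above 0, 89.5%), against 0.07 over all genes (62.8% above 0), and it was 0.13 without HET amino 2. Slc25a20 had the smallest p, with a log2 change of 0.48 (SE 0.10, adjusted p = 0.544), and it was higher in both hydroxy than in both amino libraries of every genotype. Etfa, Etfdh and Hadha shared that order in all 3 genotypes, which makes 4 of the 38 (10.5%), against 1.32% of all genes. This count was chosen after the values were seen. Etfa gave 0.34 (SE 0.10), Plin2 0.38 (SE 0.13) and Acads 0.30 (SE 0.11), each with an adjusted p of 0.544.

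Within WT, limma called 0 of the 38 and 0 of all genes (0%), with 1 and 144 at an unadjusted p under 0.05. In WT, 12 genes were higher in both hydroxy than in both amino libraries (background 19.6%) and 1 was lower (background 5.48%). After Angptl4, the smallest p-values belonged to Slc25a20 (log2 change 0.38, SE 0.18), Acot2 (0.72, SE 0.34) and Acsl1 (0.40, SE 0.21), each with an adjusted p of 1. Within HET it called 0 and 0 (0%), with 0 and 375 at an unadjusted p under 0.05. In HET, 4 genes were higher (background 13.3%) and 1, Ppara, was lower (background 8.16%). There the smallest p-values were those of Slc25a20 (0.34, SE 0.18), Etfb (0.45, SE 0.25), Etfa (0.29, SE 0.18) and Fabp1 (1.91, SE 1.17), each with an adjusted p of 1. Fabp1 turned to −0.41 (adjusted p = 0.957) without HET amino 2.

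Within KO, limma again called 0 of the 38 and 0 of all genes (0%), with 8 and 1921 at an unadjusted p under 0.05. All 8 were higher with the hydroxy complex, as were 1362 of the 1921, with 559 lower. Both hydroxy libraries lay above both amino libraries for 14 of the 38 (background 28.8%) and below for 0 (background 16.8%). Slc25a20 gave 0.72 (SE 0.18, adjusted p = 0.300), Etfa 0.58 (SE 0.18, adjusted p = 0.300), Eci2 0.69 (SE 0.22, adjusted p = 0.304) and Acads 0.48 (SE 0.19, adjusted p = 0.318). The median over the 38 genes was 0.32, against 0.07 over all genes. It was 0.04 without KO amino 1, the library with Xist, and 0.56 without KO amino 2. The enterocyte sum was 17300 and 18300 CPM in the KO amino libraries and 13900 and 8210 in the KO hydroxy libraries, and the sum of 6 proliferation markers was 252, 163, 283 and 491. The part of this shift in the values of the 38 genes was not tested.

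The effect of the complex was set against that in WT for each of the other genotypes, and not tested between KO and HET. For KO against WT limma called 0 of the 38 and 0 of all (0%), with 530 of all at an unadjusted p under 0.05. After Angptl4, the smallest p-values were those of Etfa (0.45, SE 0.25), Eci2 (0.53, SE 0.31) and Etfb (0.59, SE 0.35), each with an adjusted p of 0.992. For HET against WT it called 0 and 0 (0%), with 222 of all at an unadjusted p under 0.05. After Angptl4 came Cpt1a (−0.70, SE 0.41), Acot2 (−0.77, SE 0.49) and Ppara (−1, SE 0.66), each with an adjusted p of 1.

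A further list of 82 genes of the pathway (ketogenesis, peroxisomal import, other thioesterases, coactivators) had 77 in the table, of which 71 were tested. In KO against HET 3 of them rose and 0 fell. These 3 are 4.23% of the 71, near the 3.44% of all genes called higher and below the 6.84% called either way, so the count does not set this list apart. Of its 71 changes 52 were above 0, with a median of 0.20 against −0.07 over all genes. Acot8, a peroxisomal thioesterase, was 27.3 to 38.9 CPM in KO and 14.4 to 23.9 in HET (log2 change 0.67, SE 0.13, adjusted p = 0.0250). Echs1, the short-chain enoyl-CoA hydratase of the mitochondrial cycle, was 92.4 to 133 CPM in KO and 64.2 to 81.7 in HET (0.60, SE 0.14, adjusted p = 0.0389). Phyh, the peroxisomal enzyme that starts the breakdown of phytanic acid, was 242 to 388 CPM in KO and 127 to 223 in HET (0.78, SE 0.20, adjusted p = 0.0486). None of the 3 overlapped between KO and HET. WT overlapped HET for Acot8 and Echs1, and KO for Echs1 and Phyh. In KO against WT 0 of the 71 passed, with 6 at an unadjusted p under 0.05, led by Nudt19, a peroxisomal hydrolase of coenzyme A (0.46, SE 0.13, adjusted p = 0.320), Acot8 (0.35) and Echs1 (0.37). For the complex over all genotypes 0 of 71 passed by limma, with 8 at an unadjusted p under 0.05. The smallest p-values there were those of the coactivator Ppargc1a (−0.37, SE 0.11), Acot8 (0.33, SE 0.10) and the receptor Ppard (−0.41, SE 0.14), each with an adjusted p of 0.544. Ppargc1a stood at 69.0 and 67.2 CPM in the KO amino libraries and 36.9 and 34.2 in the KO hydroxy libraries. The complexes overlapped in the other genotypes. Amino and hydroxy libraries held 53.3 and 54.3 against 43.9 and 58.4 CPM in WT, and 62.2 and 70.3 against 54.0 and 69.2 in HET.

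Other cell types of the gut wall also use these genes. The sum of 6 adipocyte markers was 91.5 to 142 CPM in WT, 23.7 to 107 in HET and 90.0 to 119 in KO. Of these markers 1, the lipid droplet gene Cidec, rose in KO against HET (log2 change 0.92, SE 0.23, adjusted p = 0.0463). Cidec was the largest single part of that sum in every library, with 22.5 of 23.7 CPM in HET amino 2 and 42.0 of 99.2 in HET amino 1. The sum is therefore no plain measure of adipocytes. Of the 6 proliferation markers 1, Pcna, rose too (0.73, SE 0.18, adjusted p = 0.0456), but the median log2 change of the 6 was 0.10. Mki67, for one, overlapped, with 65.6 to 113 CPM in HET and 44.6 to 127 in KO. Of the pancreatic acinar markers 1, Cela1, rose as well (1.24, SE 0.26, adjusted p = 0.0329), and the sum of 5 such markers was 3.51 to 6.66 CPM in WT, 3.40 to 4.91 in HET and 4.93 to 24.8 in KO. Cela1 made up nearly all of that sum, and Cpa1, Prss2 and Pnlip were at most 0.21 CPM in every library. The adipocyte sum was lowest in HET amino 2 (23.7), the library with the lowest levels of the 38 genes, and next lowest in HET hydroxy 2 (42.4). Adipoq stood at 0.276 and 0.516 CPM in these libraries and at 3.76 to 15.9 in the others. Smooth muscle markers summed to 2050 to 5740 CPM in WT, 984 to 6060 in HET and 865 to 2920 in KO. Within HET that sum was 1140 and 984 CPM in amino 2 and hydroxy 2, from mice of 141 and 143 days. In amino 1 and hydroxy 1, from mice of 363 and 338 days, it was 6060 and 5330. Hepatocyte markers summed to 1.32 to 17.1 CPM in all libraries, and their defining gene Alb was at most 0.465 CPM. The part of adipocytes and muscle in the differences between genotypes, and of age in these sums, was not tested.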

How the data were processed

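RNA was extracted from flash-frozen gut of each mouse and libraries were made with Illumina protocols, per the labels. The authors deposited 1 table of CPM values with 0.0001 added to each, and Partek, TopHat2 and mm10 are named, without versions or roles, in the submitters' processing notes. The counting tool, annotation and strand setting were not given in these sources. Low values fell in steps that gave 26.0 to 38.8 M reads per library, but only 93.1% to 94.3% of them came within 0.05 of whole reads, so no count test was run.

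The filter kept genes that reached 1 CPM in 2 or more of 12 libraries. A model with 6 group means was fitted to log2(CPM + 1) in R 4.3.3 by limma 3.58.1 (trended eBayes, two-sided tests, 6 residual and 3.61 prior degrees of freedom), with Benjamini-Hochberg adjustment over 14001 genes within each of 9 comparisons and a threshold of 0.05. Every log2 change is on this scale, which understates the change of low genes. Genotype comparisons average over both complexes. The scripts were tested on simulated data.

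The 38 genes, the lists and the tests were chosen with earlier results of these data known. Values in every library are given for genes past the threshold, for the 4 smallest p-values of each comparison and for Ppara; of the other pathway genes, those past the threshold and the 3 smallest p-values for the complex and for KO against WT are named. Genes named beyond this rule were chosen after their values were seen. Lengths and shared 50-base windows come from GENCODE M21. Alternatives covered the pseudocount, filter, scaling, age, libraries left out, samples in the fit and each complex alone.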

Additional observations from a re-analysis of the deposited data

Results flagged for a closer look

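For each of the 38 genes and each genotype, the highest and lowest of the 4 libraries were tested with Dixon's ratio on the log2 scale against its 95% critical value. Of 114 sets, 8 were flagged, 6 for a low and 2 for a high library, and chance flags about 1 in 20. In HET, the library amino 2 was apart from the others for Fabp1 (49.2 CPM), Acaa1a (156 CPM) and Acaa1b (6.19 CPM), all low, and it is also the HET library with Fabp6 (99.3 CPM). The library HET hydroxy 2 was high for Hadh (756 CPM) and Ehhadh (108 CPM). In KO, amino 1 was low for Acaa1b (44.3 CPM) and hydroxy 2 was low for Fabp2 (2570 CPM). In WT, amino 1 was low for Ehhadh (84.3 CPM).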

How the results depend on the processing

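Of the 9 counts of genes called among the 38, 7 were 0 under every alternative run, and HET against WT ranged from 0 to 1 when each library was left out in turn. In KO against HET the count of 5 became 8 with a mean of at least 5 CPM, 3 with CPM rescaled to the listed genes, 12 with age as a covariate, and 0 without both libraries with Fabp6, with only KO and HET in the fit, within the amino complex and within the hydroxy complex. Leaving out each library in turn gave 0 to 12. With no filter it was 4, with pseudocounts of 0.1 and 5 it was 5, and with quantile normalization 6. The fit without the older HET mice leaves 1 library in each HET group. There the median log2 change of the 38 genes was 0.51, against 0.07 over all genes. The count of all genes in that comparison ranged from 1 to 1651, so the background moved too, and the cause was not tested. Of all genes, 10.8% were called with a mean of at least 5 CPM, 4.46% with rescaled CPM and 11.8% with age as a covariate. The share was 4.24% with no filter and 11.8% with quantile normalization, against 6.84% in the main fit. With pseudocounts of 0.1 and 5 it was 6.81% and 6.45%. Among 22 alternatives Etfa passed in 15, Slc25a20 in 14, Acadl in 12, Plin2 in 8, Acaa1a in 5, Acot8 in 14, Echs1 in 7 and Phyh in 5, always with a positive log2 change (0.59 to 2.22 over the first 5 genes). These 22 leave out the fits within the amino and within the hydroxy complex, in which 0 of the 38 genes passed. Fabp1 in HET reversed for the complex, to −0.41, without both libraries with Fabp6 or without HET amino 2. It ranged from −0.41 to 4.23 as single libraries were left out, and was 4.50 without the older HET mice. Rescaling moved the median of all genes in KO against HET from −0.07 to −0.15, and 33 of the 38 changes were then above 0. The median change of the 38 genes in KO against HET was 0.35 without KO amino 2, and for the difference of the complex effect between KO and WT it was −0.06 without KO amino 1 and 0.03 without WT amino 1. No paired analysis was possible because the labels carry no replicate numbers. Depth limits genes near the 3-read limit, such as Cyp4a10 in WT amino 2 (0.167 CPM).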

Other observations

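In each genotype, the library with the highest summed level of 8 clock genes was also the library with the highest Ppara level. The clock sum was 525 CPM in WT amino 1, 555 in WT hydroxy 2, 538 in HET amino 1 and 524 in KO amino 2, and 257 to 327 in the other 8 libraries. Not all 8 genes were high where the sum was. Arntl stood at 4.87, 8.92, 8.42 and 5.02 CPM in the first 4 libraries and at 9.66 to 30.5 in the others. Npas2 stood at 18.6, 18.7, 17.4 and 18.5 CPM, and at 14.0 to 43.8 in the others. Ppara stood at 47.1, 54.8, 68.8 and 53.6 CPM in these 4 libraries, which were the 2 highest of WT, the highest HET library and the highest KO library. Pdk4 stood at 32.6, 44.3, 27.6 and 18.4 CPM there, and was also high in HET hydroxy 1 (28.1) and KO hydroxy 2 (33.2), where the clock sum was 304 and 327 CPM. HET amino 2 held 60.3 CPM of Ppara, above 3 of these 4 libraries, at a clock sum of 318 CPM. The 4 libraries come from 4 groups, and the relation was not tested.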
